A study of Arabidopsis thaliana with 60 samples.

Results

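AT5G23540 and AT1G04810 are the Arabidopsis genes of an RPN11-type and an RPN2-type subunit of the proteasome, and they were followed here across 60 Affymetrix ATH1 arrays. The members were the probe sets that name only these genes in the platform annotation. Each gene had 1 such probe set, so the 2 members stand beside 22746 probe sets in all, of which 13513 named exactly 1 gene. Both members passed the filter on dim probe sets that 17301 probe sets passed.

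The proteasome is the large protease of the cytosol and nucleus that degrades proteins tagged with ubiquitin. Its barrel-shaped core particle cleaves the substrate, and a regulatory particle made of a lid and a base binds the ubiquitin tag, removes it and feeds the unfolded chain into the core. RPN11 is the metalloprotease of the lid that cuts off the ubiquitin chain, and RPN2 is a large scaffold protein of the base. In plants, as in yeast and animals, transcripts of proteasome subunits are known to rise when the protease is inhibited.

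All samples were whole seedlings of the Col-0 ecotype, grown for 7 days at 23 °C and then exposed to a compound or to a mock, and each group has 2 arrays. Bracket F1 held a mock and 18 treated groups at 3 h: propiconazole, uniconazole, paclobutrazol, prohexadione, 2,4,6T, PCIB, TIBA, NPA, Brz220, Brz91, AgNO3, AVG, CHX, MG132, ibuprofen, daminozide and salicylic acid at 10 µM, and PNO8 at 1 µM. Bracket F2 held a mock and 7 treated groups at 12 h: propiconazole, uniconazole, paclobutrazol, prohexadione, Brz220 and Brz91 at 10 µM, and PNO8 at 1 µM. Bracket G held a mock and 2 treated groups at 3 h, Brz220 at 3 µM and PNO8 at 10 µM. MG132 is a peptide aldehyde that blocks the proteasome's catalytic sites, and CHX is the usual abbreviation of cycloheximide, which stops translation. What the mock contained is not in the labels. Nor do they tell if replicate arrays stand for separately grown plants, and the spread that the p-values rest on may be technical. In whole seedlings, a smaller share of cells with the transcript and less transcript per cell cannot be told apart.

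Values are probe set intensities rescaled so that every array has the same trimmed mean. Differences are on the scale log2(rescaled intensity + 126), which understates changes the more, the dimmer the probe set. Each difference comes from limma fitted over all 60 arrays, with its standard error (SE) and a p-value adjusted by Benjamini-Hochberg over all 17301 probe sets, and "called" means an adjusted p below 0.05. Arrays of the same group correlated with r between 0.959 and 0.981, and no group held 2 identical arrays. The annotation used does not list 8730 of the 22746 probe sets, so a gene may have a probe set that could not be read here. In that annotation few markers of tissue had a probe set of their own: 1 of 6 green-tissue genes, the light-harvesting gene LHCB4.1, and 1 of 6 root genes, the root hair expansin gene EXPA7.

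The first comparison was MG132 against the mock of its bracket. Both subunit genes were higher with MG132, about 1.6-fold for AT5G23540 and about 1.5-fold for AT1G04810. For AT5G23540 the MG132 arrays read 8162 and 7846 (mean 8004 ± 224 SD, n = 2), and the F1 mock arrays read 4593 and 5316 (mean 4955 ± 511 SD, n = 2). Both MG132 arrays lay far above both mock arrays. The log2 difference was 0.68 ± 0.13 (SE; 95% interval 0.42 to 0.94; limma adjusted p = 0.00204), a fold of 1.60. Across the whole array 66 probe sets, or 0.381%, were called higher with MG132 and 108, or 0.624%, lower, and AT5G23540 stood at place 227 among the 17301 when ordered by the size of the rise.

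AT1G04810 read 3925 and 3704 with MG132 (mean 3815 ± 156 SD, n = 2) and 2486 and 2374 in the mock (mean 2430 ± 78.6 SD, n = 2), again with no overlap between the groups. Its log2 difference was 0.62 ± 0.14 (SE; 95% interval 0.35 to 0.90; limma adjusted p = 0.0102), a fold of 1.54, at place 284. Set against the mock array of the same replicate number, the MG132 arrays were 1.78 and 1.48 times as bright for AT5G23540 and 1.58 and 1.56 times for AT1G04810. These genes were singled out from earlier results on the same arrays, so the test is not independent evidence of their direction.

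With so few arrays the calls rested on single ones. For AT5G23540 the adjusted p was 0.156 without mock replicate 1 and 0.0671 without MG132 replicate 1, and the difference ranged from 0.58 to 0.78. For AT1G04810 no fit that left out 1 of the 4 arrays kept the call: the adjusted p was 0.107 and 0.0531 without mock replicates 1 and 2, and 0.181 and 0.0579 without MG132 replicates 1 and 2, with differences between 0.58 and 0.66. The F1 mock replicate 1 array had the highest 3′ to 5′ ratio of the actin control probe sets of all 60 arrays, 1.89, beside 1.43 for mock replicate 2 and 1.41 and 1.48 for MG132, with a range of 1.22 to 1.89. For the GAPDH control the same array stood near the other end, at 0.865 in a range of 0.824 to 1.26, beside 0.947 for mock replicate 2 and 1.01 and 0.981 for MG132. The part of these ratios in the result was not tested.

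**Figure D1:**
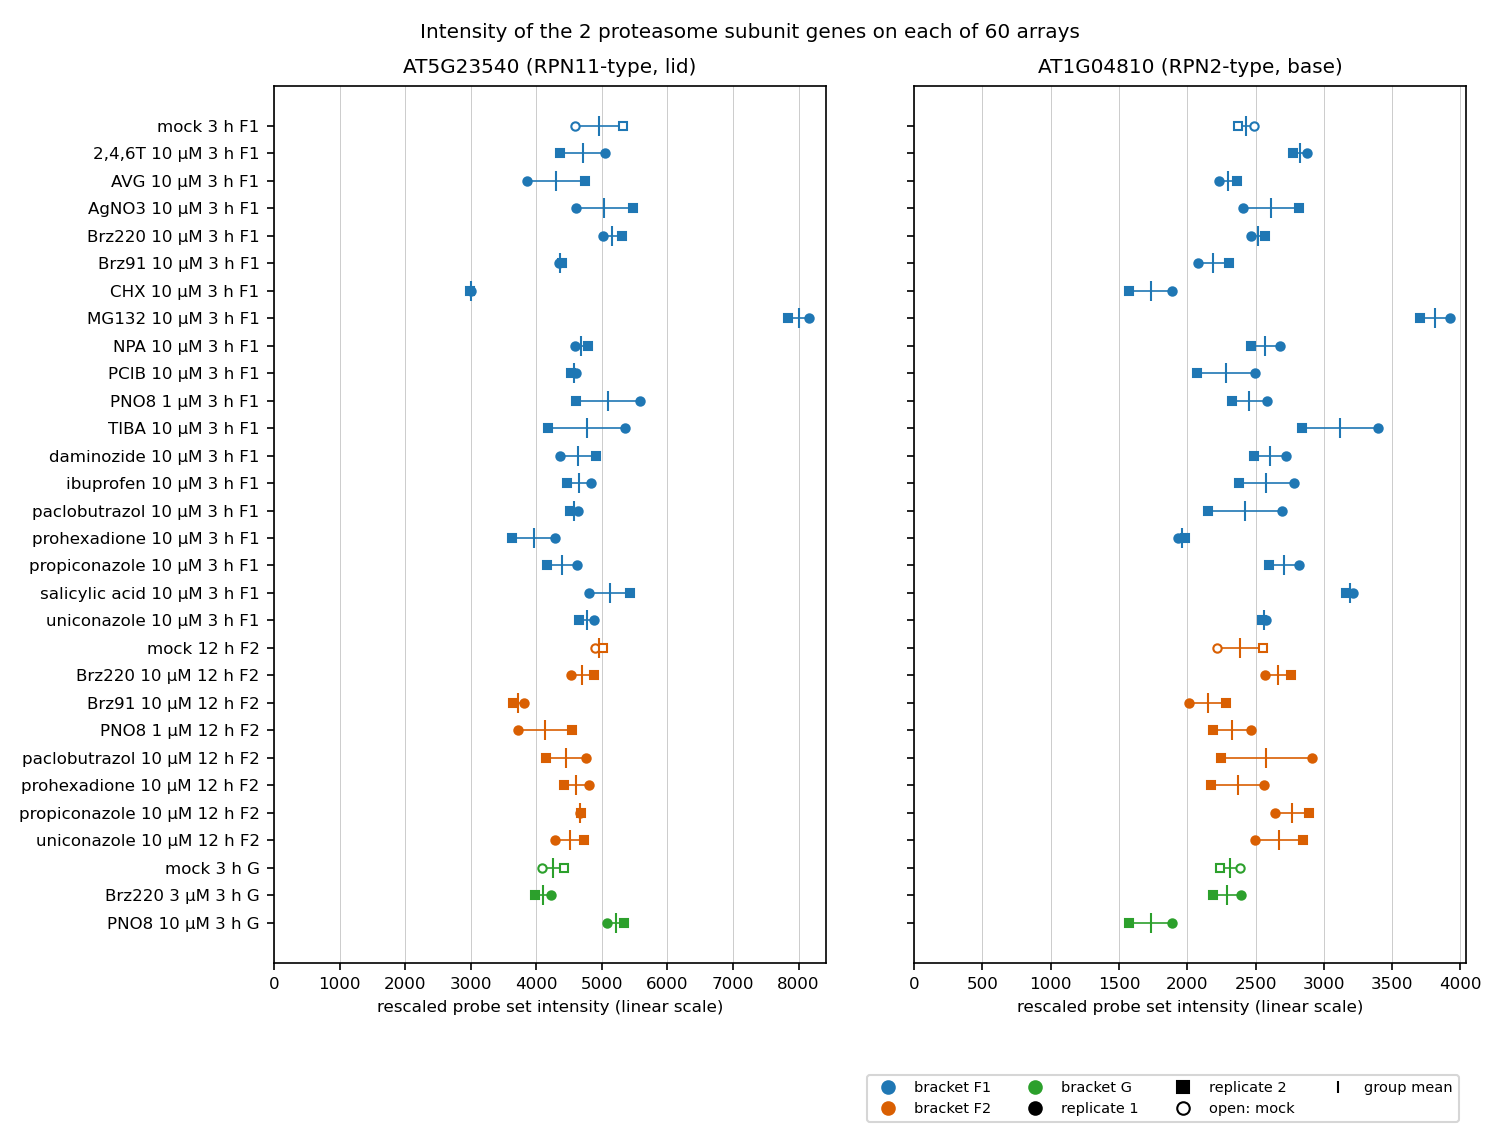
Rescaled probe set intensity (horizontal axis, linear scale from 0) of AT5G23540 (left) and AT1G04810 (right) in 30 groups, coloured by bracket. Circles and squares are replicates 1 and 2, open symbols are mocks and bars mark group means. The MG132 arrays are the rightmost points of both panels, at 7846 and 8162 and at 3704 and 3925.

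MG132 was then set beside every other treatment. For both genes the MG132 arrays were the 2 brightest of all 60. The other 58 arrays ranged from 2987 to 5578 with a median of 4603 for AT5G23540, so the dimmer MG132 array was 1.41 times the brightest other array. For AT1G04810 the other arrays ranged from 1576 to 3400 with a median of 2476, and the corresponding ratio was 1.09. Of all 17301 probe sets, 44, or 0.254%, had both MG132 arrays above all other arrays.

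A comparison that leaves out the mock arrays gave the same direction. MG132 exceeded the mean of the other 17 treated groups of F1 by 0.80 ± 0.094 for AT5G23540 (SE; 95% interval 0.61 to 0.99; limma adjusted p = 2.64e-07). For AT1G04810 the difference was 0.60 ± 0.098 (SE; 95% interval 0.40 to 0.80; limma adjusted p = 0.000138). Here 142 probe sets, or 0.821%, were called higher, and the members stood at places 36 and 127. Without MG132 replicate 1 the adjusted p for AT1G04810 was 0.0549, at a difference of 0.56; the other 35 fits with 1 array left out kept its call, and all 36 kept that of AT5G23540. With CHX taken out of the mean, the differences were 0.77 and 0.57, and both were called.

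Against each of the 17 compounds singly, MG132 was called higher in 17 of 17 comparisons for AT5G23540, with log2 differences from 0.62 over Brz220 to 1.38 over CHX. For AT1G04810 it was called higher in 13 of 17. Over these 17 comparisons together 3.44% of all tests were called higher, from 0.116% against propiconazole to 33.1% against CHX. The 4 compounds that AT1G04810 did not separate from MG132 were propiconazole (difference 0.48, 95% interval 0.20 to 0.75), 2,4,6T (0.42, 0.14 to 0.69), TIBA (0.28, 0.01 to 0.56) and salicylic acid (0.25, −0.03 to 0.52), with limma adjusted p-values of 0.236, 0.205, 0.227 and 0.346. The number of called comparisons for AT1G04810 was 4 without MG132 replicate 1, 7 without MG132 replicate 2 and 8 when only the F1 arrays were fitted.

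**Figure D2:**
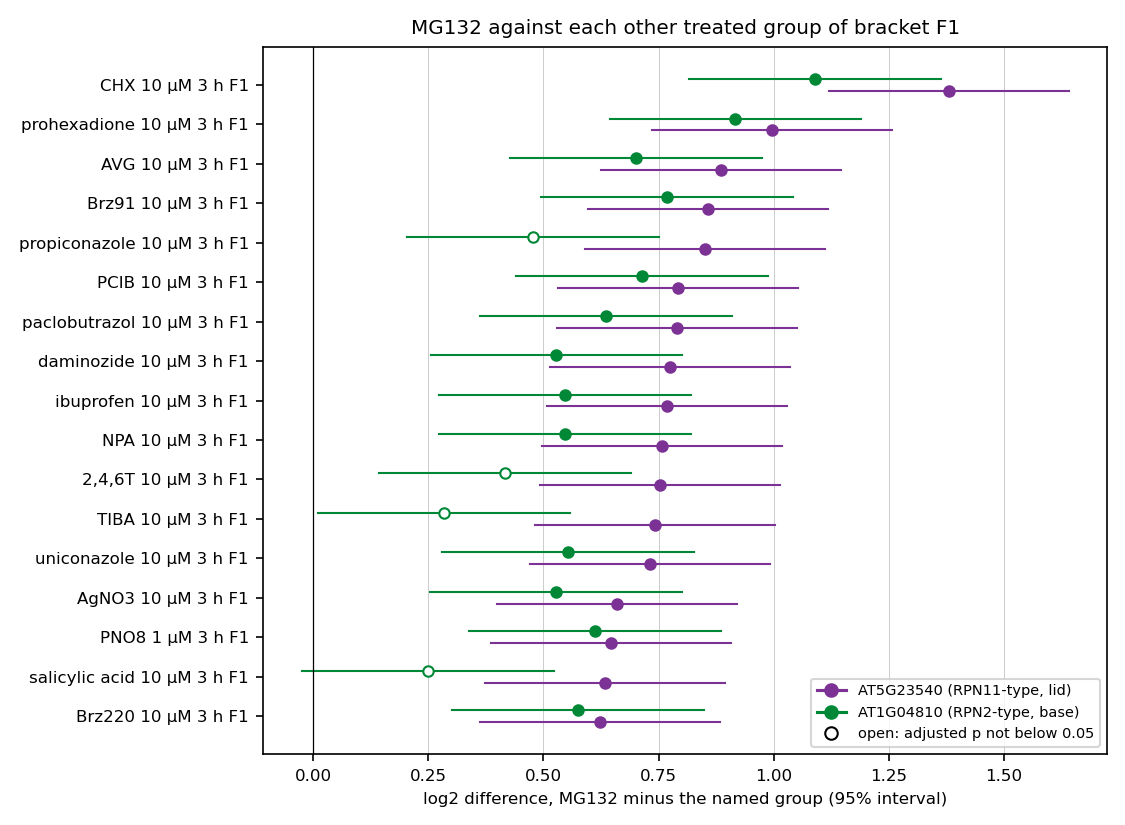
Log2 difference between MG132 and each other treated group of F1 (points, with 95% intervals) for AT5G23540 and AT1G04810, ordered by the difference of AT5G23540. All points lie to the right of 0, and the 4 open points, all of AT1G04810, are the comparisons that were not called.

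CHX gave the opposite direction in both genes. AT5G23540 read 3006 and 2987 with CHX, the 2 dimmest of the 60 arrays, against 4593 and 5316 in the mock. Its log2 difference was −0.70 ± 0.13 (SE; limma adjusted p = 1.51e-05). AT1G04810 read 1888 and 1576 with CHX against 2486 and 2374, a log2 difference of −0.46 ± 0.14 (SE; limma adjusted p = 0.00376). Without CHX replicate 2 the latter was −0.34, with an adjusted p of 0.0841.

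These falls have to be read against a wide response to CHX. With CHX 5813 probe sets, or 33.6%, were called lower and 3148, or 18.2%, higher, and the median difference over all probe sets was −0.21. Of all probe sets, 24.5% had a lower difference than AT5G23540 and 36.1% a lower one than AT1G04810. Both CHX arrays lay below all other arrays for 3363 probe sets, or 19.4%, and AT5G23540 was among them.

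With PNO8 at 10 µM the differences of the members had opposite signs, and that of AT1G04810 was called lower. AT1G04810 read 1888 and 1577 against 2387 and 2239 in the G mock, a log2 difference of −0.40 ± 0.14 (SE; limma adjusted p = 0.0470). In that comparison 1036 probe sets, or 5.99%, were called lower. The call was lost without either mock array (adjusted p = 0.234 and 0.119 without replicates 1 and 2), without PNO8 replicate 2 (−0.28, adjusted p = 0.446) and with no filter on dim probe sets (adjusted p = 0.0516).

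AT5G23540 read 5072 and 5343 with 10 µM PNO8 against 4085 and 4418 in the same mock. Both treated arrays lay above both mock arrays, but the difference of 0.29 ± 0.13 (SE; 95% interval 0.03 to 0.55) was not called (limma adjusted p = 0.162). Whether the 2 genes differed in their response to PNO8 was not tested. At 1 µM in F1, a different dose and bracket, PNO8 arrays read 5578 and 4601 for AT5G23540 and 2583 and 2328 for AT1G04810, and each pair straddled at least 1 mock array.

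Over the 26 treated groups other than MG132, 1 was called for AT5G23540 (CHX, lower) and 2 for AT1G04810 (CHX and 10 µM PNO8, both lower), and 0 were called higher for either gene. At an unadjusted p below 0.05 there were 5 of 26 for each gene, where 12.1% of all tests in these comparisons passed. Over the 26 comparisons together 2.57% of all tests were called lower and 1.92% higher, and the median comparison had 0.0897% called lower. The log2 differences ranged from −0.70 to 0.29 with a median of −0.09 for AT5G23540, of which 21 were negative and 5 positive. For AT1G04810 they ranged from −0.46 to 0.38 with a median of 0.06, of which 11 were negative and 15 positive.

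Salicylic acid and TIBA gave the next highest levels of AT1G04810. The salicylic acid arrays read 3215 and 3164, 0.38 ± 0.14 above the mock (SE; limma adjusted p = 0.0819), and the TIBA arrays 3400 and 2842, 0.34 ± 0.14 above it (SE; limma adjusted p = 0.106). All 4 arrays were above both mock arrays, yet neither difference was called. AT5G23540 showed no such separation: its salicylic acid arrays, 4809 and 5434, and its TIBA arrays, 5359 and 4179, spanned a mock array. Prohexadione at 3 h lay on the low side for both genes, at 4290 and 3634 for AT5G23540 (−0.31 ± 0.13; limma adjusted p = 0.372) and at 1935 and 1985 for AT1G04810 (−0.29 ± 0.14; limma adjusted p = 0.464).

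At 12 h, AT5G23540 was dimmer on both arrays than both mock arrays in 7 of 7 treated groups. The mock read 4896 and 5023, and the treated arrays ranged from 3641 with Brz91 to 4879 with Brz220. These 7 comparisons share the same 2 mock arrays, 0 of them were called, and 287 of 17301 probe sets, or 1.66%, showed the same order. The greatest of the 7 differences was that of Brz91, at 3815 and 3641 (−0.40 ± 0.13 SE; limma adjusted p = 0.279). For AT1G04810 the count was 0 of 7.

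Over all 26 groups, both arrays of AT5G23540 lay below both mock arrays in 10 groups, above in 1 and overlapped them in 15. For AT1G04810 they lay below in 5, above in 8 and overlapped in 13. Over all probe sets and the 26 comparisons, 21.2% of pairs lay below both mock arrays and 18.0% above, so the counts of the members are to be read against those shares.

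**Figure D3:**
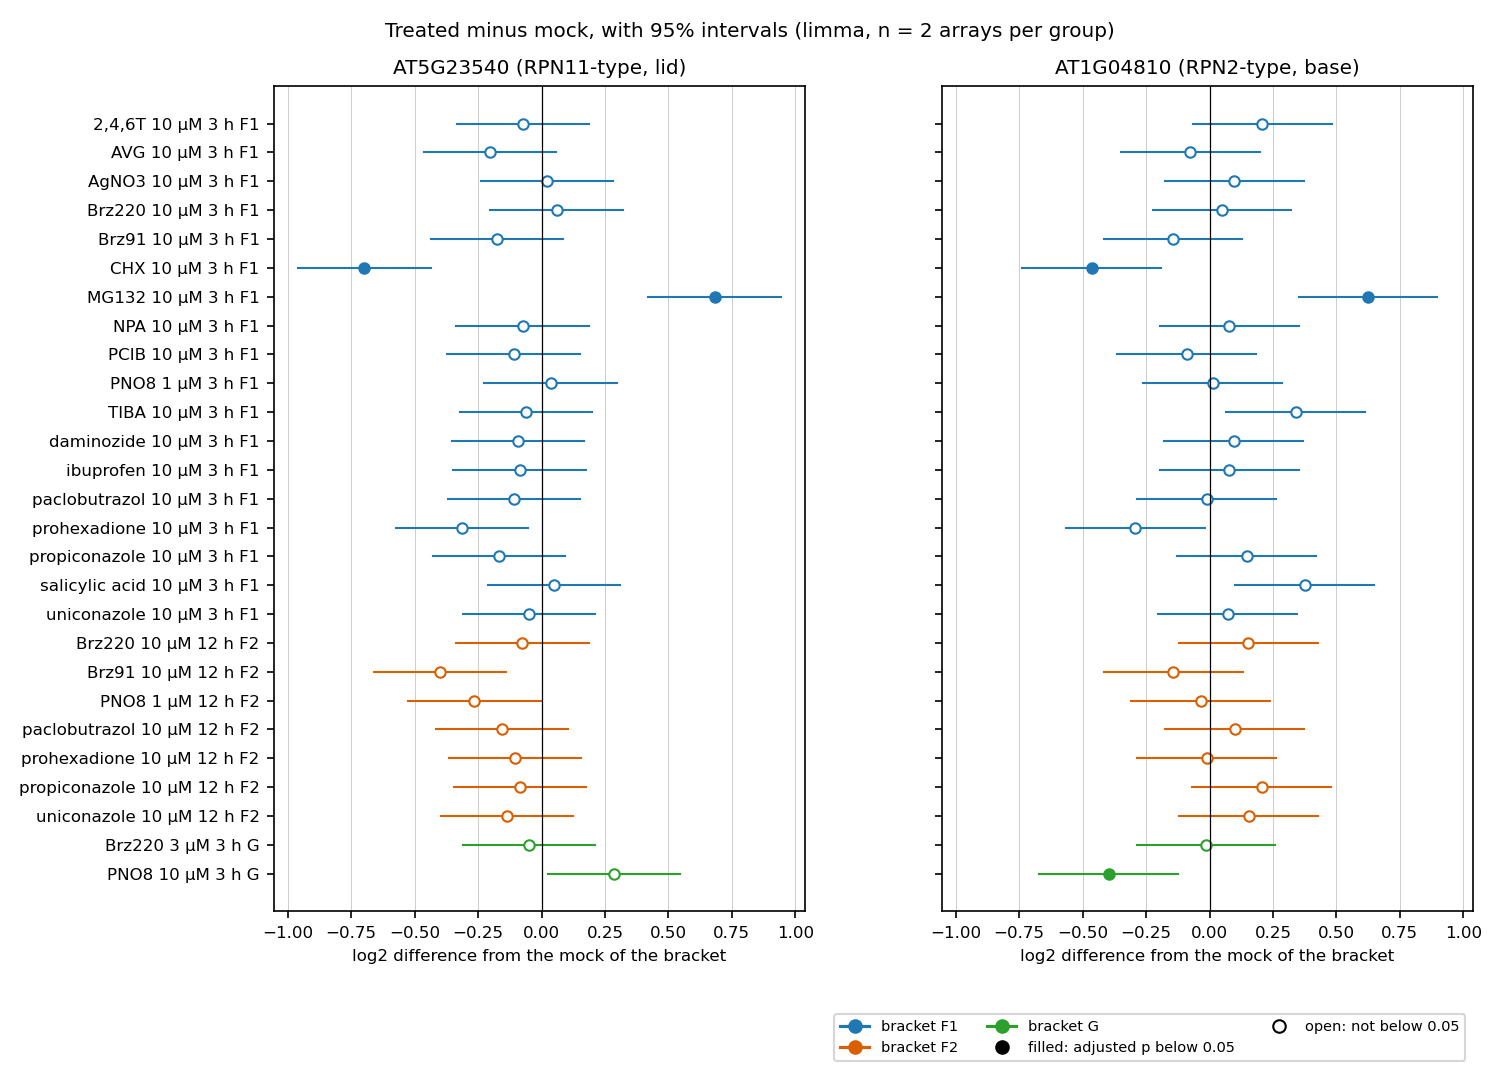
Log2 difference from the mock of the bracket (points, with 95% intervals from limma, n = 2 arrays per group) for AT5G23540 (left) and AT1G04810 (right) in 27 treated groups, coloured by bracket. Filled points were called. MG132 is the only filled point right of 0 in either panel; CHX is filled left of 0 in both, and 10 µM PNO8 for AT1G04810 alone.

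For the 7 compounds given at the same dose at 3 h and 12 h, the response at 12 h was set against that at 3 h. None of the 7 differences was called for either gene by limma, and 0 were below an unadjusted p of 0.05. They ranged from −0.30 to 0.21 for AT5G23540 (SE 0.18 each) and from −0.05 to 0.28 for AT1G04810 (SE 0.19 each). The smallest adjusted p-values were 0.732 and 0.968. Over all probe sets 0.0743% of the tests in these 7 comparisons were called. MG132 and CHX were measured at 3 h only.

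Ordered by group mean, the levels of AT5G23540 ran from 8004 with MG132 to 2997 with CHX. MG132 at the top and CHX at the bottom did not overlap their neighbours, which were 10 µM PNO8 (5208 ± 192 SD) and Brz91 at 12 h (3728 ± 123 SD), and every other pair of neighbours overlapped. AT1G04810 ran from 3815 with MG132 to 1732 with 10 µM PNO8. MG132 stood clear of salicylic acid (3190 ± 36.3 SD), and at the low end prohexadione at 3 h (1960 ± 35.3 SD) lay between Brz91 at 12 h (2149 ± 188 SD) and CHX (1732 ± 221 SD) without overlapping either. All other neighbours overlapped, CHX and 10 µM PNO8 included. The 3 mock means were 4955, 4960 and 4251 for AT5G23540 in F1, F2 and G, and 2430, 2388 and 2313 for AT1G04810.

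Other proteasome genes were read from lists of lid, base and core subunits, 52 genes without the members. In the annotation used, a probe set naming 1 gene was found for 7 of them, so the lists were covered thinly. The remaining genes may have probe sets among those that the annotation does not list. Their names below are those of the lists; the gene table gives a symbol only for RPN12a. With MG132 1 of the 7 was called higher, 0 were called lower and 4 had an unadjusted p below 0.05; of all probe sets 0.381% were called higher and 10.5% had an unadjusted p below 0.05. All 7 differences were positive, with a median of 0.44, against −0.008 over all probe sets.

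Among the lid genes, RPN12A (AT1G64520), a small subunit needed to complete the lid in yeast, read 7017 and 7859 with MG132 and 5040 and 5396 in the mock. Its difference was 0.50 ± 0.12 (SE; limma adjusted p = 0.0359), and no fit without 1 of the 4 arrays kept the call (adjusted p 0.0524 to 0.395). Its MG132 arrays were also above the range of the other F1 treated arrays, 2400 to 6575. RPN7 (AT4G24820), a structural lid subunit, read 9800 and 11623 with MG132 against 7746 and 7975, a difference of 0.44 ± 0.12 (SE) that missed the threshold (limma adjusted p = 0.0789). RPN9A (AT5G45620) and RPN3B (AT1G75990), likewise structural lid subunits, had differences of 0.11 ± 0.18 and 0.01 ± 0.15 (SE; limma adjusted p = 0.912 and 0.992).

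Among the base genes, RPT4B (AT1G45000), a subunit of the ATPase ring that unfolds substrates, read 6021 and 5952 with MG132 against 4145 and 4541 in the mock. Its difference of 0.45 ± 0.13 (SE) was not called (limma adjusted p = 0.0851). RPN2A (AT2G32730), the paralog of AT1G04810, read 3234 and 3941 against 2752 and 3169, a difference of 0.26 ± 0.25 (SE; limma adjusted p = 0.806). How far each RPN2 probe set also binds the other paralog's transcript was not tested. The 1 core gene, PAB2 (AT1G79210), which encodes a structural subunit of the core's outer ring, read 3702 and 4219 against 2738 and 2495, at 0.57 ± 0.22 (SE; limma adjusted p = 0.257).

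Against the mean of the other 17 F1 groups, 3 of the 7 were called higher with MG132 (0.821% of all probe sets), with log2 differences of 0.51 for RPN12A, 0.63 for RPN7 and 0.45 for RPT4B. With CHX 5 of the 7 were called lower (33.6% of all probe sets) and none was positive, with a median of −0.71 against −0.21 over all probe sets. The lowest was RPN7, at 2855 and 2861 with CHX and a difference of −1.42 ± 0.12 (SE). Without mock replicate 2 the count with CHX was 4. In the other 25 treated groups 0 of the 7 were called in either direction, and in the 10 µM PNO8 comparison 2 had an unadjusted p below 0.05, as did 23.7% of all probe sets. The lowest of the 7 there was RPN2A, the paralog of AT1G04810, at −0.66 ± 0.25 (SE; limma adjusted p = 0.0894). With bracket and replicate number as a block it was called (limma adjusted p = 0.0328).

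**Figure D4:**
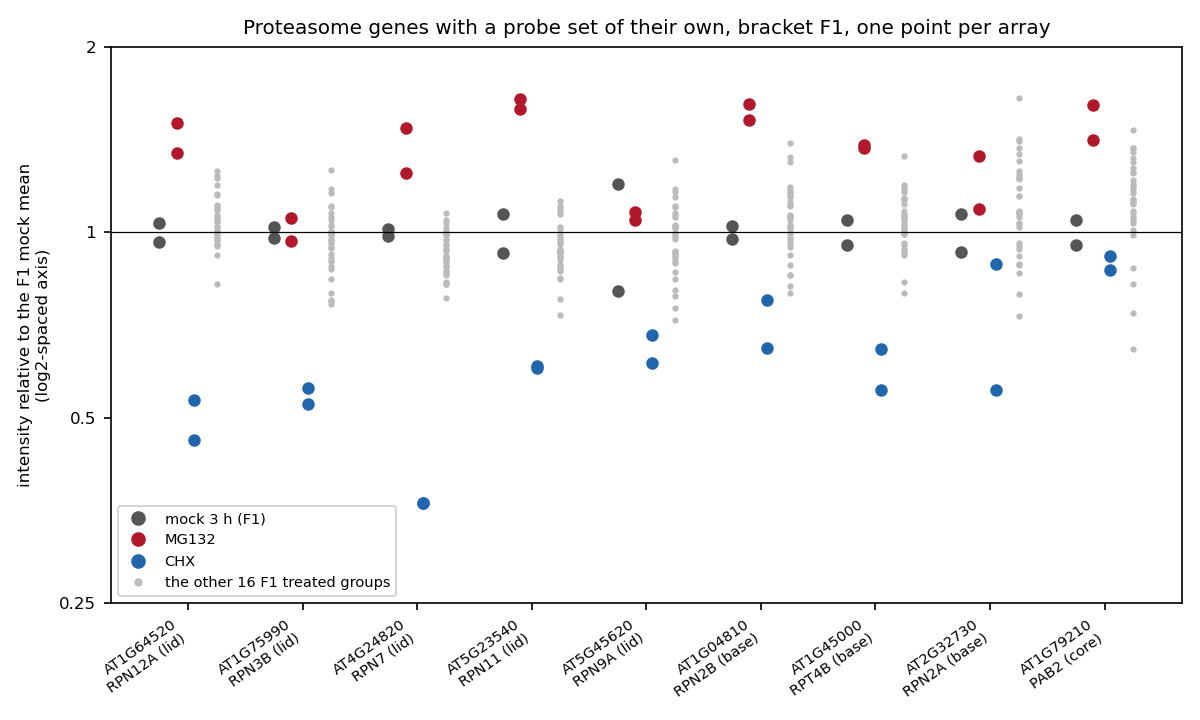
Intensity of the 9 proteasome genes with a probe set of their own on the F1 arrays, each point 1 array divided by that gene's F1 mock mean (log2-spaced axis). Grey points are the other 16 F1 treated groups. MG132 points lie above both mock points in 7 of the genes, the exceptions being RPN3B and RPN9A, and the CHX points lie below the mock points in all 9.

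Genes outside the proteasome that were listed for comparison gave few readings. CSN5B (AT1G71230), a subunit of the COP9 signalosome whose metalloprotease fold is related to that of RPN11, read 561 and 360 with MG132 against 419 and 342, a difference of 0.19 ± 0.23 (SE; limma adjusted p = 0.859). In the annotation used, its paralog CSN5A had no probe set naming it alone, nor did any of 9 listed proteasome partner genes. The 1 listed heat shock gene that this annotation covered, ROF2 (AT5G48570), differed by 0.56 ± 0.27 (SE; limma adjusted p = 0.451).

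The tissue markers were read beside these results. LHCB4.1 read 31224 and 28900 with MG132 and 24416 and 33113 in the mock, so the groups overlapped (0.08 ± 0.40 SE; limma adjusted p = 0.979). EXPA7 read 797 and 772 with MG132 against 1913 and 1447, a difference of −0.98 ± 0.26 (SE; limma adjusted p = 0.0531). It was also called in 5 of the 26 other treated groups, where its differences ranged from −1.83 to 0.36. Over all probe sets 2.57% of the tests in those groups were called lower and 1.92% higher. A low EXPA7 reading was thus not particular to MG132. The part of root hair tissue in the differences of the proteasome genes was not tested.

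The likeness of other genes to each member was described by Pearson's r over the 60 arrays, after the mean of each bracket and replicate number had been subtracted, among 9560 other probe sets naming 1 gene. The arrays share the MG132 and CHX groups, so these values carry no p. The 5 genes most like AT5G23540 were AT1G67250 (r = 0.724), RPN12A (0.704), RPN7 (0.702), AT1G77840 (0.702) and AT2G19740 (0.689). For AT1G04810 they were AT3G12050 (0.724), AT5G52840 (0.714), RPT4B (0.705), AT2G19740 (0.691) and AT5G10780 (0.691). Of the 7 other listed proteasome genes 3 are among these, and RPT4B was also 7th for AT5G23540. The genes given here by locus alone are not in the lists, and whether any of them works with the proteasome was not examined. The others stood lower for AT5G23540 and AT1G04810 in turn: RPN3B at places 283 and 166, PAB2 at 681 and 2437, RPN9A at 1719 and 3791, and RPN2A at 2181 and 275. AT1G67250 was itself called with MG132 (0.53 ± 0.14 SE; limma adjusted p = 0.0498), but in no fit without 1 of the 4 arrays (adjusted p 0.126 to 0.309).

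The members correlated with each other at r = 0.673 (Spearman's rho = 0.416), each standing 9th in the other's order. The value was lower without the 2 groups at the ends of the range. Without MG132, r was 0.540 over 58 arrays and the places were 409 and 263. Without MG132 and CHX, r was 0.333 over 56 arrays and the places were 358 and 481. The 5 most alike genes also changed when MG132 was left out. For AT5G23540 they were then AT1G77840 (0.774), AT3G11500 (0.742), AT2G19740 (0.740), AT5G16450 (0.724) and SDH1-1 (0.718). For AT1G04810 they were AT1G28510 (0.720), AT1G16210 (0.709), AT5G27850 (0.708), AT5G52840 (0.704) and AT3G12050 (0.703). None of the listed proteasome genes was among these, but several still stood high among the 9560 while the CHX arrays were kept in. For AT5G23540 RPN12A was at place 61, RPN7 at 67, RPT4B at 134 and RPN3B at 186. PAB2, RPN9A and RPN2A were at 1834, 2231 and 2619. For AT1G04810 RPT4B was at place 37, RPN3B at 107, RPN2A at 283, RPN12A at 470 and RPN7 at 690. There PAB2 and RPN9A were at 3964 and 4488. With the CHX arrays left out as well, the 5 genes most like each member again held no listed proteasome gene.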

How the data were processed

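Total RNA of 60 whole-seedling samples was hybridised to 1-colour ATH1 arrays. The deposited intensities are linear, 1 per probe set; the submitters' processing notes name MAS5, whose version and scaling target are not given in the sources read. Intensities ranged from 0.2 to 66000.6 over 22810 probe sets, 64 of them controls left out here, and the number of arrays per group limits precision. Within a bracket, arrays with the same replicate number shared 1 value of the 2% trimmed mean, which varied among the 6 such sets (for replicates 1 and 2: F1 1523 and 1220, F2 1020 and 1441, G 1360 and 1267). Each array was therefore rescaled to their median, 1313. The log2 scale has a pseudocount of 126, the median 20th percentile of the arrays. Probe sets had to exceed the 40th percentile of the array on 2 or more arrays.

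limma 3.58.1 (R 4.3.3) fitted 1 mean per group with an intensity trend; 30 residual degrees of freedom remained, with a median SD of 0.225. On simulated data for MG132 against its mock (17301 probe sets), 12%, 67% and 100% of changes of log2 size 0.5, 1 and 2 were recovered, with 8 false calls among 131. The simulated noise was normal and independent between arrays, with changes in MG132 only. Most pairs of F1 groups in the real data shared some deviation by replicate number, so the real rates may differ. Figures were drawn with matplotlib 3.10.9.

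Genes were named from a platform table: it lists 13513 probe sets with 1 gene, 503 with several, and does not list 8730. The TAIR10.1 gene table held 13436 of the single genes. Named genes are the members, listed genes that pass the threshold with MG132 with or without a replicate block, RPN2A, CSN5A and CSN5B, and the 5 genes most like each member; the other measured genes of the lists were named after their values were seen. The members and lists were chosen with earlier results of these data known. The mean without CHX and the correlations without CHX were alternatives added after the data were seen. Sequences and coordinates were not analysed here.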

Additional observations from a re-analysis of the deposited data

How the results depend on the processing

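No result changed direction and passed the threshold under any alternative. Both members stayed called with MG132 against the mock and against the other F1 groups with quantile normalization, no pseudocount, no filter, the F1 arrays alone, and, against the mock, both 3 h mocks as the control. On intensities as deposited, the differences from the mock were 0.68 for AT5G23540 and 0.62 for AT1G04810 (adjusted p 1.00 each), and those from the mean 0.80 and 0.60 (0.0619 and 0.362); 0 other groups were called for either gene, and MG132 was called higher than 1 of 17 groups for each. There the spread within groups includes, by construction, the different scaling of the 2 replicate numbers. With no filter 1 group other than MG132 was called for AT1G04810, and with the F1 arrays alone MG132 was called higher than 8 of 17. Leaving out 1 array gave 0.58 to 0.78 and 0.58 to 0.66 against the mock, 0.77 to 0.83 and 0.56 to 0.64 against the mean, and 15 to 17 and 4 to 13 groups below MG132.

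Probe sets higher with MG132 numbered 66, but 108 with the replicate block, 21 as deposited, 110 as deposited with the block, 42 with F1 arrays alone, 158 with both mocks and 25 to 100 with 1 array left out. Those lower numbered 108, then 174, 13, 190, 62, 294 and 14 to 222. Other proteasome genes higher numbered 1, but 2 with the block, with the block as deposited and with both mocks, and 0 as deposited, with quantile normalization, with F1 arrays alone and in all fits with 1 array left out. The cause of these differences in number was not tested.

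The fit reported above does not pair arrays by replicate number. Over 171 pairs of F1 groups the correlation of same-numbered deviations was above 0.1 in 120 and as low as −0.11. Most pairs of groups, but not all, thus shared some deviation by number. The median residual SD was 0.225 without a replicate block and 0.211 with it. With bracket and number as a replicate block the members' adjusted p with MG132 was 0.00188 and 0.00474, RPN7 (0.0462) and EXPA7 (0.0454) became called, as did RPN2A with 10 µM PNO8 (0.0328, lower), and no member call changed; as deposited with the block the adjusted p-values of the members with MG132 were 0.00185 and 0.00461.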
